A study of Mus musculus with 12 samples.

Results

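BV2 cells, an established line of mouse microglia immortalised with the raf and myc oncogenes, were deprived of oxygen and glucose and then re-oxygenated (OGD), and were compared with Control cells, for which the labels name no agent. Every gene of the deposited count table was compared between 4 OGD and 4 Control libraries, 8 of the 12 libraries of the series. The remaining 4 libraries, of cells given the plant flavone acacetin, entered only the filter on low counts, the scaling between libraries and the estimate of their spread. Both groups are the same immortalised line without any further allele or agent, so 1 cell background stands for microglia here. The labels give no duration of the deprivation or of the re-oxygenation. Nor do they tell if the 4 OGD or the 4 Control libraries stem from cultures kept apart, so that p-values measure the spread between these libraries, which may be technical.

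Microglia are the resident macrophages of the brain and spinal cord, and they are among the first cells to respond when blood flow to the brain fails. Lack of oxygen stabilises HIF transcription factors, which switch on genes of glucose use and blood vessel growth. Lack of glucose starves protein glycosylation in the endoplasmic reticulum (ER) and can set off the unfolded protein response and the integrated stress response. The return of oxygen brings reactive oxygen species, which are answered by genes of the factor NRF2, while Toll-like receptors and NF-kB drive the release of cytokines and chemokines.

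Library depth ran from 24760961 to 28674548 counted reads in Control and from 16427886 to 31811719 in OGD. Reads of 18S ribosomal RNA (Rn18s) made up 13.1% of OGD 2 and 21.3% of OGD 3, against 0.144% to 1.85% of the other 6 libraries. Microglial and macrophage markers were present in both groups, at very uneven levels. Most of their sum came from Tyrobp, Lyz2, Cd68 and Fcer1g. Others were scarce, with at most 0.02 FPKM for Gpr34, 0.48 for Ptprc, 0.63 for C1qa and 0.90 for Cx3cr1 in any of the 8 libraries. Tmem119 ranged from 1.20 to 2.67 FPKM. FPKM are fragments scaled by gene length and library total. The summed level of 18 of the 20 markers listed was 3029 to 3647 FPKM in Control and 2294 to 3160.0 in OGD, with the lowest sum in OGD 3. P2ry12, a defining marker of brain microglia, reached at most 0.05 FPKM and was thus at or near 0. Siglech and Sall1 had no entry in the count table and so no counted reads. Markers of astrocytes, endothelial cells and fibroblasts, lymphocytes and oligodendrocytes summed to at most 0.360 FPKM per list in each of the 8 libraries, with no read of the astrocyte marker Slc1a3, and markers of neurons to 1.08 to 2.91 FPKM.

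Levels are given as CPM, the reads of a gene relative to a common library total after TMM scaling. A value with ± and no unit is a log2 fold change of OGD over Control with an approximate standard error. That error is the size of the log2 fold change divided by the square root of the F value of its test. Of 24934 genes in the count table, 13249 passed the filter on low counts and were tested with edgeR. At an adjusted p under 0.05, 3813 genes were called (28.8%), of which 2148 were higher in OGD (16.2%) and 1665 lower (12.6%). The groups did not overlap in 3554 of the called genes (93.2%) and in 4770 of all tested genes (36.0%). Changes of at least 2-fold numbered 719 rises and 813 falls, and changes of at least 4-fold 115 rises and 105 falls. The median log2 fold change of all tested genes was 0.03. In bulk RNA, a change in the number of cells that express a gene and a change in RNA per cell cannot be told apart.

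The balance between rises and falls moved with the scaling. Rises made up 56.3% of calls on counts. With limma on log2(FPKM + 1) the split was 914 rises and 1776 falls, or 34% rises. The totals behind the deposited FPKM values, estimated as count over FPKM in genes of at least 20 FPKM and relative to Control 1, were 1.06 and 1.19 times the counted totals in OGD 2 and OGD 3, and 0.983 to 1.02 times in the other libraries. After each library was divided by its share of reads that are not Rn18s, the same test gave 1820 rises and 1803 falls, or 50.2% rises. With 0.1 added in place of 1 the share of rises was 35.1%, and the median of all genes lay at -0.10, so that changes on that scale are relative to this shift.

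Most called genes kept their direction without the 18S-rich libraries OGD 2 and OGD 3. Without them the fit gave 1131 rises (8.18% of 13832 genes tested) and 879 falls (6.35%), and 1937 of the 3813 genes were still called. The direction was the same for 3797 of the 3813 (99.6%) and turned for 16. Over all tested genes it was the same for 89.6%, and since OGD 1 and OGD 4 also took part in the calls, the choice of called genes largely fixes the first share. The fit on OGD 2 and OGD 3 without OGD 1 and OGD 4, an alternative chosen after the data were seen, gave 1796 rises and 1174 falls, and the direction was then the same for all 3813. With the Rn18s share as a covariate there were 1557 rises and 1124 falls, 2653 of them shared with the 3813, and with rRNA genes left out 2191 rises and 1839 falls.

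**Figure D1:**
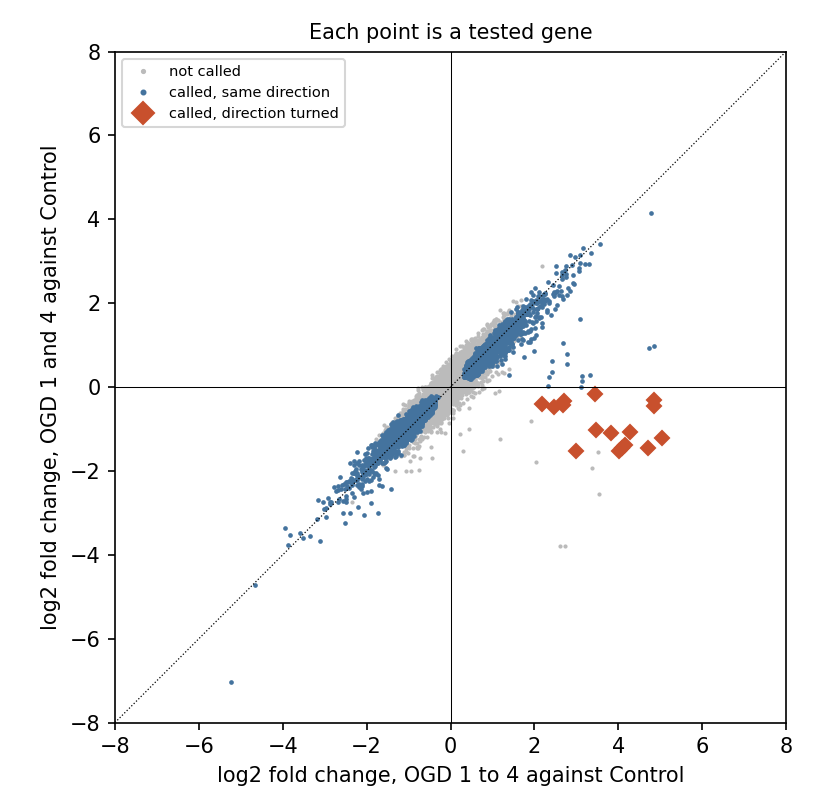
Log2 fold change of each tested gene in all 4 OGD libraries against Control (horizontal axis) and in OGD 1 and OGD 4 alone against Control (vertical axis). Most called genes (blue) lie along the dotted line of equal values, and the 16 called genes whose direction turned (red diamonds) lie below 0 on the vertical axis.

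The 16 genes that turned were largely RNAs made without a poly(A) tail. They comprised 18S rRNA, 3 small nuclear RNAs, 2 small nucleolar RNAs, 1 small Cajal body RNA, the 7SK RNA, the ribonuclease RNA Rmrp, 1 gene of microRNA type and 6 protein-coding genes, 5 of them histones. Rmrp (ENSMUSG00000115420.2, chromosome 4), the RNA of a ribonuclease that trims ribosomal RNA precursors, stood at 3.23, 8.29, 1.70 and 0.365 CPM in Control 1 to 4 and 1.51, 142, 298 and 1.4 CPM in OGD 1 to 4 (log2 fold change 5.04 ± 1.45, adjusted p = 0.0187). The levels in OGD 2 and OGD 3 stood far above all others, while OGD 1 and OGD 4 lay within the range of Control, and the log2 fold change without OGD 2 and OGD 3 was -1.21. 7SK, the RNA that holds the elongation factor P-TEFb inactive, stood at 3.84, 8.79, 2.30 and 4.61 CPM in Control 1 to 4 and 1.80, 116, 214 and 1.75 CPM in OGD 1 to 4, and its log2 fold change was 4.09, or -1.45 without those 2 libraries. The spliceosomal RNA gene U1 followed the same pattern with 0.736, 1.74, 0.396 and 0.365 CPM in Control 1 to 4 and 0.410, 15.2, 42.1 and 0.195 CPM in OGD 1 to 4. Both 7SK and U1 were chosen after their values were seen. Leaving out Control 1, Control 3, Control 4 or OGD 3 alone also ended the calls of Rmrp, 7SK and U1 (adjusted p = 0.0533 to 0.121), as did leaving out OGD 2 for 7SK (0.0525). Summed reads of small nuclear, nucleolar and Cajal body RNA genes came to 13.1 to 27.9 CPM of all reads in Control, to 23.4 and 27.9 in OGD 1 and OGD 4, and to 100.4 and 234 in OGD 2 and OGD 3.

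The sixth protein-coding gene among those that turned, Ccnb1ip1, which encodes a ubiquitin ligase of meiosis, stood at 3.76, 8.46, 1.55 and 1.09 CPM in Control 1 to 4 and 2.75, 153, 269.5 and 2.66 CPM in OGD 1 to 4. OGD 2 and OGD 3 again stood alone. In GENCODE vM21 its gene model overlaps Rpph1, the RNA of ribonuclease P, on the same strand. Rpph1 itself had no counted reads under that name in the 8 libraries. Which of the genes the Ccnb1ip1 reads belong to is uncertain. Ccnb1ip1 was chosen after its values were seen. Its adjusted p was 0.0109, 0.172 with the Rn18s share as a covariate and 0.0661 to 0.0834 with limma on FPKM.

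**Figure D2:**
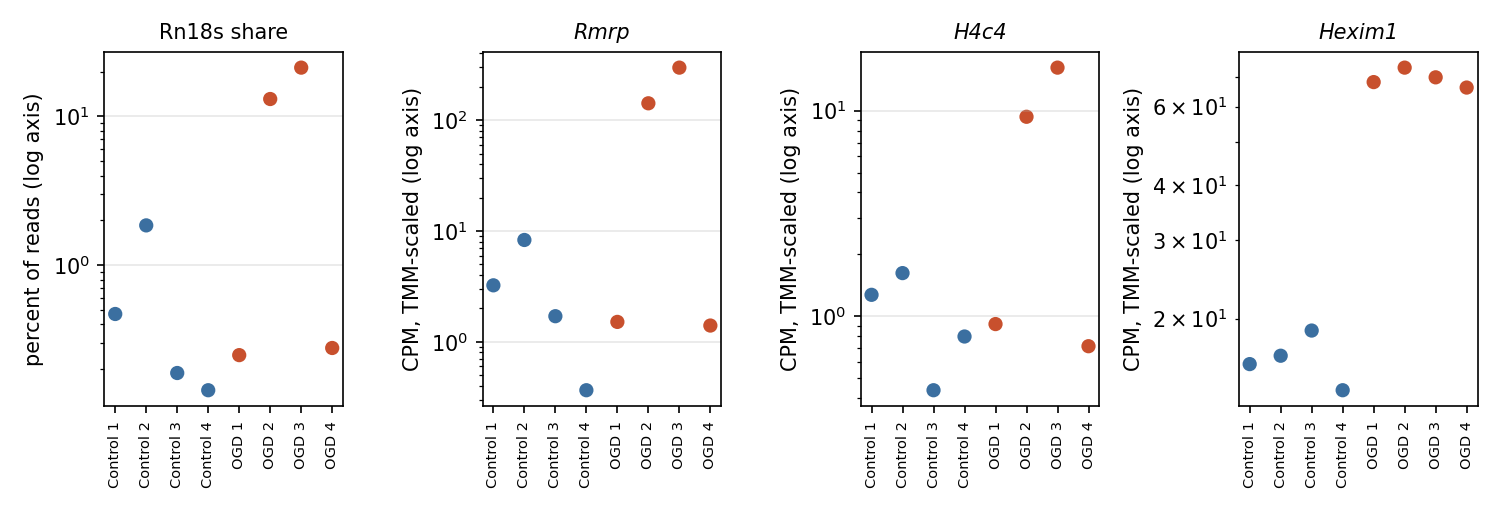
Share of reads of Rn18s in percent, and TMM-scaled CPM of Rmrp, the histone gene H4c4 and Hexim1, in each Control (blue) and OGD (red) library, on log axes. Rmrp and H4c4 are high only in OGD 2 and OGD 3, the libraries with 13.1% and 21.3% Rn18s, whereas Hexim1 is high in all 4 OGD libraries.

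The largest rises among protein-coding genes that averaged 20 CPM or more included genes of RNA processing, transcription control and glycosylation. Only genes called with and without OGD 2 and OGD 3 and with no overlap between the groups were ranked, so neither property is a finding for the 12 rises and 12 falls. The 12 rises were Mat2a, Ppp1r10, Slc24a5, Pmm2, Hexim1, Ccdc137, Acin1, Sfpq, Mgat2, Srsf6, Icam2 and Ncoa5. Ppp1r10 (ENSMUSG00000039220.17, chromosome 17), whose protein directs protein phosphatase 1 to chromatin and to RNA polymerase II, stood at 9.69, 3.81, 9.16 and 2.75 CPM in Control 1 to 4 and 46.9, 46.2, 41.3 and 62.1 CPM in OGD 1 to 4 (log2 fold change 2.96 ± 0.33, adjusted p = 8.84e-05). Slc24a5 (ENSMUSG00000035183.15, chromosome 2), a sodium and calcium exchanger of intracellular membranes known from pigment cells, stood at 15.1, 14.3, 17.2 and 12.7 CPM in Control 1 to 4 and 56.3, 105, 79.3 and 62.3 CPM in OGD 1 to 4 (log2 fold change 2.35 ± 0.21, adjusted p = 2.64e-05). The lowest OGD library lay well above the highest Control library for both genes.

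A pair of glycosylation enzymes was among these rises. Pmm2 (ENSMUSG00000022711.17, chromosome 16), the phosphomannomutase that supplies mannose for the sugar chains of proteins, stood at 14.4, 15.2, 16.2 and 11 CPM in Control 1 to 4 and 57.0, 87.5, 69.8 and 53.8 CPM in OGD 1 to 4 (log2 fold change 2.24 ± 0.19, adjusted p = 2.64e-05). Mgat2 (ENSMUSG00000043998.11, chromosome 12), a Golgi enzyme that builds complex sugar chains, stood at 13.8, 14.6, 18.3 and 13.7 CPM in Control 1 to 4 and 49.0, 65.3, 52.4 and 50.9 CPM in OGD 1 to 4 (log2 fold change 1.85 ± 0.16, adjusted p = 2.64e-05). Icam2, an adhesion molecule of leukocytes and endothelium, ranged from 10.7 to 18.8 CPM in Control and from 38.2 to 68.1 CPM in OGD, and Ncoa5, a coregulator of nuclear receptors, ranging from 12.7 to 28.7 CPM in Control and from 68.7 to 74.0 CPM in OGD. The calls of these 4 genes held under every alternative run.

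The 12 largest falls included genes of metabolism and of secreted signals. They were Slc2a8, Lta, Gchfr, Ypel3, Tgm1, Dcxr, Txnip, Kyat1, Ccl3, Eml2, Dusp4 and Selenoo. Gchfr (ENSMUSG00000046814.4, chromosome 2), the feedback inhibitor of the first enzyme of tetrahydrobiopterin synthesis, stood at 45.8, 37.5, 35.2 and 36.0 CPM in Control 1 to 4 and 10.6, 4.94, 6.95 and 5.49 CPM in OGD 1 to 4 (log2 fold change -2.46 ± 0.34, adjusted p = 0.000259). Dcxr (ENSMUSG00000039450.12, chromosome 11), a sugar reductase of the uronate cycle, stood at 41.2, 30.4, 30.8 and 33.2 CPM in Control 1 to 4 and 8.11, 7.89, 7.81 and 5.32 CPM in OGD 1 to 4 (log2 fold change -2.22 ± 0.23, adjusted p = 5.98e-05). Kyat1 (ENSMUSG00000039648.15, chromosome 2), a transaminase that forms kynurenic acid, stood at 44.0, 37.4, 35.9 and 40.0 CPM in Control 1 to 4 and 15.1, 8.44, 7.18 and 9.28 CPM in OGD 1 to 4 (log2 fold change -1.96 ± 0.28, adjusted p = 0.000316). All 4 OGD libraries lay below all 4 Control libraries in each case, as the ranking required. Ypel3, a gene linked to growth arrest, went from 57.4 ± 6.64 to 11.5 ± 4.58 CPM (mean ± SD, n = 4), Tgm1, a transglutaminase, from 44.4 ± 5.48 to 9.31 ± 4.84 CPM, and Selenoo, a mitochondrial selenoprotein, from 53.7 ± 3.14 to 14.3 ± 3.23 CPM.

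**Figure D3:**
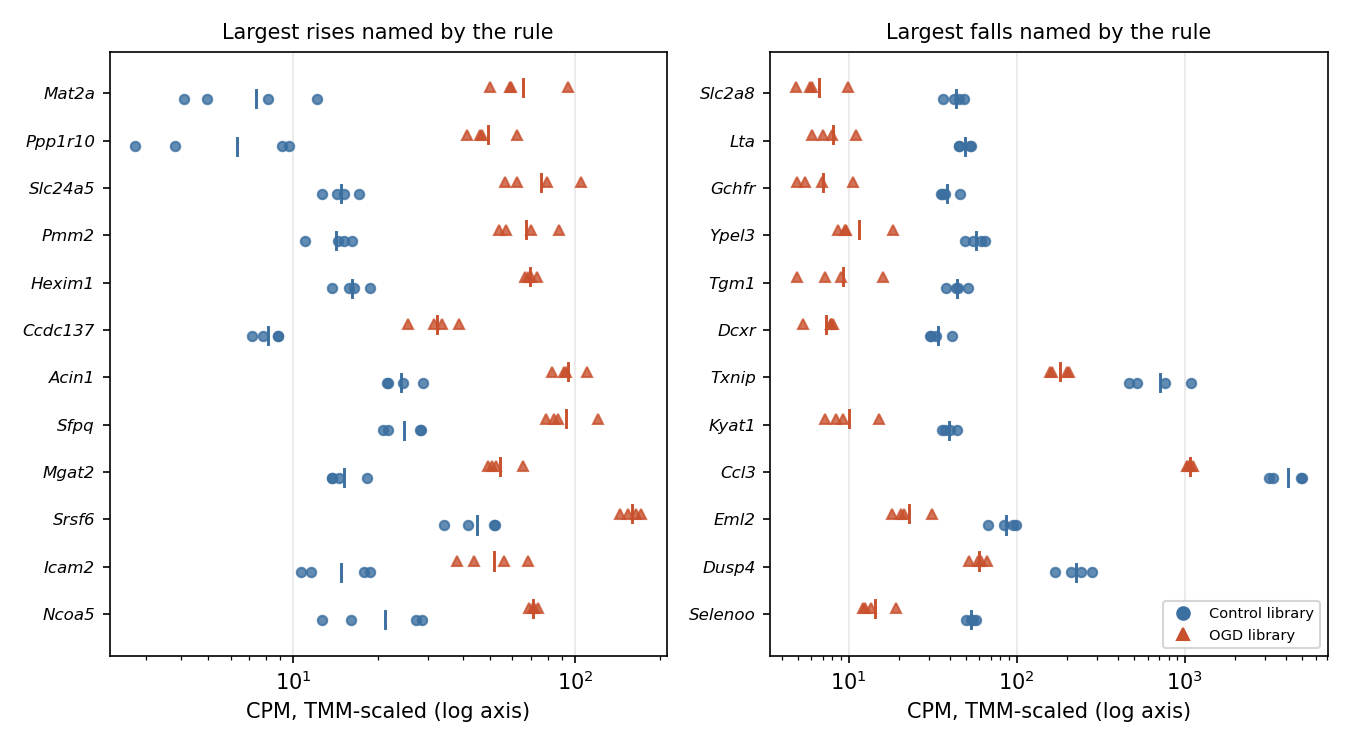
TMM-scaled CPM on a log axis of the 12 largest rises and the 12 largest falls named by the rule, for each Control library (blue circles) and OGD library (red triangles), with vertical bars at the group means. The rule admitted only genes whose groups do not overlap, for example Hexim1 with 13.8 to 18.8 CPM against 66.2 to 73.4 CPM.

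Many splicing factor genes rose, and several of the kinases that phosphorylate splicing factors fell. SR proteins bind exons and recruit the spliceosome, and CLK and SRPK kinases phosphorylate them. Among 13 SR protein and Tra2 genes tested, 9 were called higher and 0 lower, with a median of 1.07, and 7 were still called higher without OGD 2 and OGD 3. Srsf2 stood at 115, 97.5, 119 and 98.1 CPM in Control 1 to 4 and 230.0, 276, 252 and 270.4 CPM in OGD 1 to 4, and Srsf3 had a log2 fold change of 1.43 ± 0.17. Srsf5 ranged from 26.9 to 37.4 CPM in Control and from 61.4 to 71.7 CPM in OGD, and Srsf1, chosen after its values were seen, ranging from 25.4 to 33.3 CPM in Control and from 67.9 to 97.9 CPM in OGD. For these 4 genes the OGD libraries lay above the Control libraries without overlap.

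Of 11 CLK, SRPK and DYRK kinase genes, 1 was called higher and 4 lower, with a median of -0.55. Srpk3 (ENSMUSG00000002007.6, chromosome X), a kinase known from muscle, fell, ranging from 3.49 to 5.48 CPM in Control and from 0.703 to 1.04 CPM in OGD (log2 fold change -2.42 ± 0.35, adjusted p = 0.000297). Clk3 (ENSMUSG00000032316.9, chromosome 9) stood at 73.5, 81.2, 70.8 and 80.8 CPM in Control 1 to 4 and 40.8, 36.5, 40.4 and 34.1 CPM in OGD 1 to 4 (log2 fold change -1.01 ± 0.15, adjusted p = 0.000364), and Clk2 had -0.96 ± 0.16. Srpk1 was the call in the other direction at 0.73 ± 0.20. Its adjusted p of 0.0144 became 0.0930 without OGD 2 and OGD 3, 0.0523 without OGD 1 and OGD 4 and 0.139 to 0.277 with limma on FPKM.

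Genes of hnRNP and cold-inducible proteins, which package pre-mRNA, gave 9 rises and 1 fall among 26, with a median of 0.46. Hnrnpm, a splicing regulator, ranged from 20.1 to 31.1 CPM in Control and from 52.3 to 86.3 CPM in OGD, and Hnrnpf from 67.7 to 90.2 CPM in Control and from 124 to 159.6 CPM in OGD. The fall was Cirbp, an RNA-binding protein induced by mild cold, with -1.01 ± 0.18. Acin1, a protein of the exon junction complex, stood at 24.5, 21.8, 28.9 and 21.6 CPM in Control 1 to 4 and 82.6, 91.4, 93.1 and 109.9 CPM in OGD 1 to 4 (log2 fold change 1.96 ± 0.16, adjusted p = 2.64e-05). Sfpq, a splicing factor of nuclear paraspeckles, stood at 28.4, 21.7, 28.1 and 20.9 CPM in Control 1 to 4 and 86.9, 79.2, 84.5 and 120.4 CPM in OGD 1 to 4 (log2 fold change 1.91 ± 0.20, adjusted p = 6.67e-05), and OGD 4 was the highest library for both genes.

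The elongation control gene Hexim1 had the smallest p of all tested genes. Hexim1 (ENSMUSG00000048878.7, chromosome 11), which together with 7SK RNA holds P-TEFb inactive, stood at 15.8, 16.5, 18.8 and 13.8 CPM in Control 1 to 4 and 68.1, 73.4, 69.8 and 66.2 CPM in OGD 1 to 4 (log2 fold change 2.10 ± 0.15, adjusted p = 1.02e-05). The 4 OGD libraries lay within a narrow range that did not include any Control library, and the value without OGD 2 and OGD 3 was 2.06. Mepce, the enzyme that caps and stabilises 7SK RNA, stood at 34.4, 29.8, 35.6 and 26.0 CPM in Control 1 to 4 and 62.0, 59.7, 55.7 and 67.1 CPM in OGD 1 to 4 (log2 fold change 0.96 ± 0.14, adjusted p = 0.000294). Over the 20 genes of pause release, 4 were called higher and 1 lower, a share near that of all genes. Brd2, a chromatin reader, had 0.72 ± 0.14, with adjusted p = 0.00196, 1.25e-05 to 0.127 over the alternatives, highest with limma on log2(FPKM + 1). Ell, an elongation factor, was the fall at -0.55 ± 0.16 (adjusted p = 0.0227, 0.000477 to 0.160 over the alternatives, highest without OGD 2 and OGD 3). Its call also ended without Control 1 (adjusted p = 0.0643), without OGD 2 (0.0712) and with the Rn18s share as a covariate (0.0803).

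Mediator, the complex that links transcription factors to RNA polymerase II, had 8 genes called higher and 0 lower among 32, 5 higher without OGD 2 and 3 higher without OGD 2 and OGD 3. The share called was 25.0%, against 28.8% of all genes called in either direction and 16.2% called higher. The median was 0.13 on counts and -0.05 on FPKM. Med22 (ENSMUSG00000015776.13, chromosome 2) stood at 18.4, 19.9, 20.3 and 16.7 CPM in Control 1 to 4 and 47.7, 49.7, 50.5 and 46.5 CPM in OGD 1 to 4 (log2 fold change 1.37 ± 0.12, adjusted p = 2.64e-05), and Med20 ranged from 29.1 to 36.5 CPM in Control and from 55.8 to 77.6 CPM in OGD. Both belong to the head module, and their OGD libraries lay above every Control library.

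Many genes of ER folding were higher. Of 24 genes of ER chaperones and ER-associated degradation, 11 were called higher and 0 lower, with a median of 0.58, and 8 were called higher without OGD 2 and OGD 3. The unfolded protein response acts on many such genes through a promoter element, written here as CCAAT, 9 bases and CCACG. The RefSeq promoter table (GRCm38.p6, 250 bases before to 50 after each gene's start) held that element on either strand in 0.119% of its 32851 promoters, in 0.165% of those of tested genes, and in those of 8 of the 20 list members with an entry. It was present in 3 of the 8 called rises with an entry, namely Creld2, Calr and Syvn1. The 250 bases before the start of Creld2 (chr15:88819396-88819645, plus strand) and Calr (chr8:84846932-84847181, minus strand) are printed 5′ to 3′ because both genes rose and both windows carry the element, which is in capitals and reads on the opposite strand.
Creld2: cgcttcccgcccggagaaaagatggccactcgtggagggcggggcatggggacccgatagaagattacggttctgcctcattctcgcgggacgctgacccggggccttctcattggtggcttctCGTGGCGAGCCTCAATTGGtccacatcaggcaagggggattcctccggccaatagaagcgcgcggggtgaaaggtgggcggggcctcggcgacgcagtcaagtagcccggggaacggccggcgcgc
Calr: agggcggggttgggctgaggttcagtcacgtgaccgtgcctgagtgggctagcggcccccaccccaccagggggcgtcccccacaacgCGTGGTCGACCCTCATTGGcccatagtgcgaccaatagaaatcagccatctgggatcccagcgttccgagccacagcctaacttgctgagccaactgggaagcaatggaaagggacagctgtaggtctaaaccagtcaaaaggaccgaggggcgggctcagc
A match describes the letters of the window only. Creld2, a secreted ER stress protein, stood at 44.9, 44.5, 56.2 and 45.1 CPM in Control 1 to 4 and 91.7, 100, 99.8 and 81.0 CPM in OGD 1 to 4, and Calr, the calcium-binding chaperone calreticulin, at 627, 636, 829 and 625 CPM in Control 1 to 4 and 1478, 1658, 1519 and 1348 CPM in OGD 1 to 4. Both were chosen after their values were seen, and their log2 fold changes were 0.97 ± 0.14 and 1.14 ± 0.16. The groups did not overlap for either gene.

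Selenos, which draws misfolded proteins out of the ER, stood at 20.2, 22.1, 23.1 and 19.6 CPM in Control 1 to 4 and 55.0, 75.8, 61.5 and 44.5 CPM in OGD 1 to 4 (log2 fold change 1.48 ± 0.18, adjusted p = 0.000136), and the co-chaperone gene Dnajb11 at 43.3, 42.0, 50.9 and 42.1 CPM in Control 1 to 4 and 90.5, 109, 108 and 103 CPM in OGD 1 to 4 (log2 fold change 1.20 ± 0.12, adjusted p = 4.80e-05). All OGD libraries exceeded all Control libraries. Hspa5, the chaperone BiP, stood at 94.8, 142, 130.4 and 211 CPM in Control 1 to 4 and 208, 226, 231 and 240.1 CPM in OGD 1 to 4, and the gene was not called (adjusted p = 0.0938, 0.000101 to 0.310 over the alternatives), though edgeR called it higher on the 8 Control and OGD libraries alone (adjusted p = 0.0123). Control 4 of Hspa5 reached the OGD range, since 211 CPM exceeded the 208 CPM of OGD 1. Xbp1, the transcription factor spliced in this response, had 0.36 ± 0.14 and was not called (adjusted p = 0.0704, 0.00349 to 0.411 over the alternatives). Syvn1, a ubiquitin ligase of ER-associated degradation, ranged from 13.5 to 16.2 CPM in Control and from 24.8 to 33.5 CPM in OGD (0.97 ± 0.13).

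Of 28 genes of the integrated stress response 8 were called higher and 3 lower, with a median of 0.21. The response slows translation and raises the factor ATF4, whose target Ddit3 encodes the death-linked factor CHOP. Ddit3 (ENSMUSG00000025408.16, chromosome 10) stood at 40.6, 67.1, 41.4 and 91.8 CPM in Control 1 to 4 and 13.9, 21.4, 17.6 and 11.9 CPM in OGD 1 to 4 (log2 fold change -1.90 ± 0.28, adjusted p = 0.000319). Control was spread widely, yet its lowest library still exceeded the highest OGD library, and the log2 fold change without OGD 2 and OGD 3 was -2.21. Atf3 had -0.66 ± 0.16 (adjusted p = 0.00655, 0.000131 to 0.0563 over the alternatives, highest without OGD 1 and OGD 4), and Atf4 itself ranged from 424 to 472 CPM in Control and from 341 to 493 CPM in OGD without being called (adjusted p = 0.615).

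Stc2, a secreted regulator of calcium and phosphate, ranged from 8.72 to 13.8 CPM in Control and from 20.1 to 30.5 CPM in OGD, and Atf5, a factor of the mitochondrial stress response, ranging from 26.8 to 39.7 CPM in Control and from 51.6 to 77.5 CPM in OGD. Ppp1r15b, which restores translation by reversing the phosphorylation of eIF2alpha, had 0.89 ± 0.16 (adjusted p = 0.00127, 6.98e-06 to 0.0994 over the alternatives, highest with limma on log2(FPKM + 1)).

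Cytosolic and nuclear heat shock genes gave 7 rises and 0 falls among 21, with 3 rises without Control 1, 4 without Control 2 and 2 without OGD 2 and OGD 3. The median was 0.36 in all 8 libraries and 0.42 without those 2. In all 8 libraries 33.3% were called, against 28.8% of all genes called in either direction and 16.2% called higher. Ahsa1, the activator of HSP90, stood at 364, 364, 412 and 342 CPM in Control 1 to 4 and 627, 824, 703 and 515 CPM in OGD 1 to 4 (log2 fold change 0.85 ± 0.18, adjusted p = 0.00283), and the groups did not overlap. 

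Redox genes gave 8 rises and 2 falls among 26 NRF2 targets and redox enzymes, with a median of 0.37, and 6 rises and 2 falls without OGD 2 and OGD 3. The core of the antioxidant response element, TGACNNNGC on either strand, was in 12.4% of all promoters of the table, in 16.9% of those of tested genes, in 8 of the 22 members with an entry and in 4 of the 7 called rises with an entry. One of these, Txnrd1, is shown for the 250 bases before its start (chr10:82858956-82859205, plus strand, GRCm38.p6), with the match, here on the opposite strand, in capitals.
Txnrd1: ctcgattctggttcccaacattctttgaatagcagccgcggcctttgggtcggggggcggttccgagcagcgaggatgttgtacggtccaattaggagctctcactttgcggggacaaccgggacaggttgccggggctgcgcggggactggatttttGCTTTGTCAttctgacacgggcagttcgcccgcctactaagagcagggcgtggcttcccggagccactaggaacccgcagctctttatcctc
Txnrd1, the cytosolic thioredoxin reductase, stood at 53, 53.5, 46.9 and 61.6 CPM in Control 1 to 4 and 89.6, 117, 114 and 128 CPM in OGD 1 to 4 (log2 fold change 1.06 ± 0.17, adjusted p = 0.000666). Srxn1, which reactivates oxidised peroxiredoxins, stood at 22.1, 23.1, 26.1 and 18.9 CPM in Control 1 to 4 and 54.8, 81.0, 60.8 and 57.2 CPM in OGD 1 to 4 (log2 fold change 1.49 ± 0.17, adjusted p = 0.000116). OGD 2 was the highest library for Srxn1 and OGD 4 for Txnrd1, and the groups did not overlap. The glutathione transferase gene Gstm1 went the other way, ranging from 272 to 338 CPM in Control and from 145 to 177 CPM in OGD (-0.90 ± 0.15).

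The oxidative branch of the pentose phosphate pathway yields NADPH for these enzymes. Pgd had 0.85 ± 0.18 and ranged from 279 to 382 CPM in Control and from 509 to 705 CPM in OGD. G6pdx had 0.71 ± 0.15 (adjusted p = 0.00362, 2.34e-05 to 0.0603 over the alternatives, highest with limma on log2(FPKM + 1)). Pgls, the lactonase between them, fell, ranging from 412 to 606 CPM in Control and from 174 to 267 CPM in OGD (-0.99 ± 0.24, adjusted p = 0.00770, 8.27e-07 to 0.0564 over the alternatives, highest without OGD 1 and OGD 4).

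Of 25 HIF targets and oxygen-sensing genes 4 were called higher and 7 lower (44.0% against 28.8% of all genes), with a median of 0.02. Leaving out Control 2 or OGD 2 gave 2 and 4, Control 4 gave 4 and 2, OGD 3 gave 4 and 3, and OGD 2 together with OGD 3 gave 2 and 1. Among genes not called, Hif1a stood at 7.69, 5.80, 5.27 and 9.65 CPM in Control 1 to 4 and 5.14, 3.05, 3.90 and 12.1 CPM in OGD 1 to 4, and Slc2a1, the main glucose transporter, at 333, 294, 265 and 284 CPM in Control 1 to 4 and 409.6, 232, 237 and 274 CPM in OGD 1 to 4. The groups overlapped for both. Vegfa and Ldha were not called either (adjusted p = 0.757 and 0.779). Pdk1, a kinase that keeps pyruvate from mitochondria, had -0.41 ± 0.17 (adjusted p = 0.0814, 0.00479 to 0.382 over the alternatives), and 3 of 23 alternatives called it lower. Bnip3, a mitophagy receptor, had -0.54 ± 0.35 (adjusted p = 0.278, 0.00948 to 0.967 over the alternatives), and 2 of 23 alternatives called it lower, among them the fit without OGD 1 and OGD 4 (adjusted p = 0.0192). For Bnip3, OGD 2 and OGD 3 at 16.1 and 14.3 CPM lay below the 33.9 and 41.6 CPM of OGD 4 and OGD 1. Car9, a carbonic anhydrase and marker of hypoxia, ranged from 2.81 to 4.60 CPM in Control and from 0.468 to 0.899 CPM in OGD (log2 fold change -2.28 ± 0.35, adjusted p = 0.000450). Hif1an, the asparagine hydroxylase that inhibits HIF, rose, ranging from 8.35 to 11.1 CPM in Control and from 17.2 to 21.3 CPM in OGD (log2 fold change 0.92 ± 0.14, adjusted p = 0.000484).

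The motif ACGTG, the core of the HIF response element and also part of the E-box CACGTG, was searched on either strand. It was in 19.6% of all promoters, in 29.8% of those of tested genes, and in those of 17 of the 22 members with an entry, including 2 of 4 called rises and 4 of 5 called falls. Ddit4, an inhibitor of mTOR, had -1.51 ± 0.34 (adjusted p = 0.00469, 1.41e-06 to 0.0698 over the alternatives, highest without OGD 2 and OGD 3). Ak4, a mitochondrial adenylate kinase, had 0.84 ± 0.14 (adjusted p = 0.000633, 4.38e-07 to 0.0696 over the alternatives, highest with limma on log2(FPKM + 1)).

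Both lactate transporter genes rose, and a glucose transporter gene of internal membranes fell. Among 25 genes of glycolysis and glucose uptake 3 were called higher and 4 lower (28.0% against 28.8% of all genes). The numbers were the same without OGD 2 and OGD 3. Slc16a1 (ENSMUSG00000032902.2, chromosome 3), the monocarboxylate transporter MCT1, stood at 24.9, 26.7, 29.9 and 28.0 CPM in Control 1 to 4 and 65.4, 93.9, 87.7 and 87.5 CPM in OGD 1 to 4 (log2 fold change 1.61 ± 0.21, adjusted p = 0.000194). Slc16a3, the lactate exporter MCT4, stood at 390.2, 256, 374 and 197 CPM in Control 1 to 4 and 783, 623, 635 and 579.7 CPM in OGD 1 to 4 (log2 fold change 1.11 ± 0.24, adjusted p = 0.00364). Control was uneven for Slc16a3, with Control 2 and Control 4 lower than Control 1 and Control 3, but no Control library reached the OGD range. Slc2a8 (ENSMUSG00000026791.15, chromosome 2) stood at 48.6, 42.6, 36.4 and 45.3 CPM in Control 1 to 4 and 9.85, 6.09, 4.84 and 5.88 CPM in OGD 1 to 4 (log2 fold change -2.68 ± 0.32, adjusted p = 0.000128), and Txnip, which limits glucose uptake and binds thioredoxin, at 468, 767, 522 and 1092 CPM in Control 1 to 4 and 205, 157, 162 and 199.9 CPM in OGD 1 to 4 (log2 fold change -1.98 ± 0.25, adjusted p = 0.000182). Pfkm, a subunit of phosphofructokinase, ranged from 56.0 to 60.4 CPM in Control and from 27.1 to 41.1 CPM in OGD.

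The respiratory chain is encoded partly by mitochondrial and mostly by nuclear DNA. Of 13 mRNAs encoded by mitochondrial DNA, 3 were called higher and 0 lower, namely mt-Nd1, mt-Nd2 and mt-Nd3. This was 23.1%, against 28.8% of all genes called in either direction and 16.2% called higher. mt-Nd1 stood at 350.0, 252, 408 and 188 CPM in Control 1 to 4 and 764, 736, 799.9 and 607 CPM in OGD 1 to 4 (log2 fold change 1.28 ± 0.25, adjusted p = 0.00177), and mt-Nd2 ranged from 82.0 to 191 CPM in Control and from 283 to 336 CPM in OGD. Control 4 was the lowest library for both, and the groups did not overlap. mt-Nd3 rested on few reads, with at most 1.05 CPM, and its adjusted p of 0.0261 was 0.0555 to 0.0893 without Control 2, Control 4, OGD 2 or OGD 3 and 0.204 without OGD 2 and OGD 3.

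Of 68 nuclear genes of the respiratory chain, 0 were called higher and 2 lower, with 57 below 0 and a median of -0.20. Limma on log2(FPKM + 1) called 26 of them lower and 0 higher, and the count test called 9 lower without Control 4 and 1 lower without Control 1, Control 2, Control 3, OGD 1, OGD 2 or OGD 4. Of 21 genes of the TCA cycle 1 was called, the fall of Pcx, pyruvate carboxylase, with -0.64 ± 0.17 (adjusted p = 0.0102, 2.77e-05 to 0.0677 over the alternatives, highest without OGD 2 and OGD 3). Without OGD 4 there were 1 rise and 2 falls, and without Control 3 there were 1 rise and 1 fall.

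**Figure D4:**
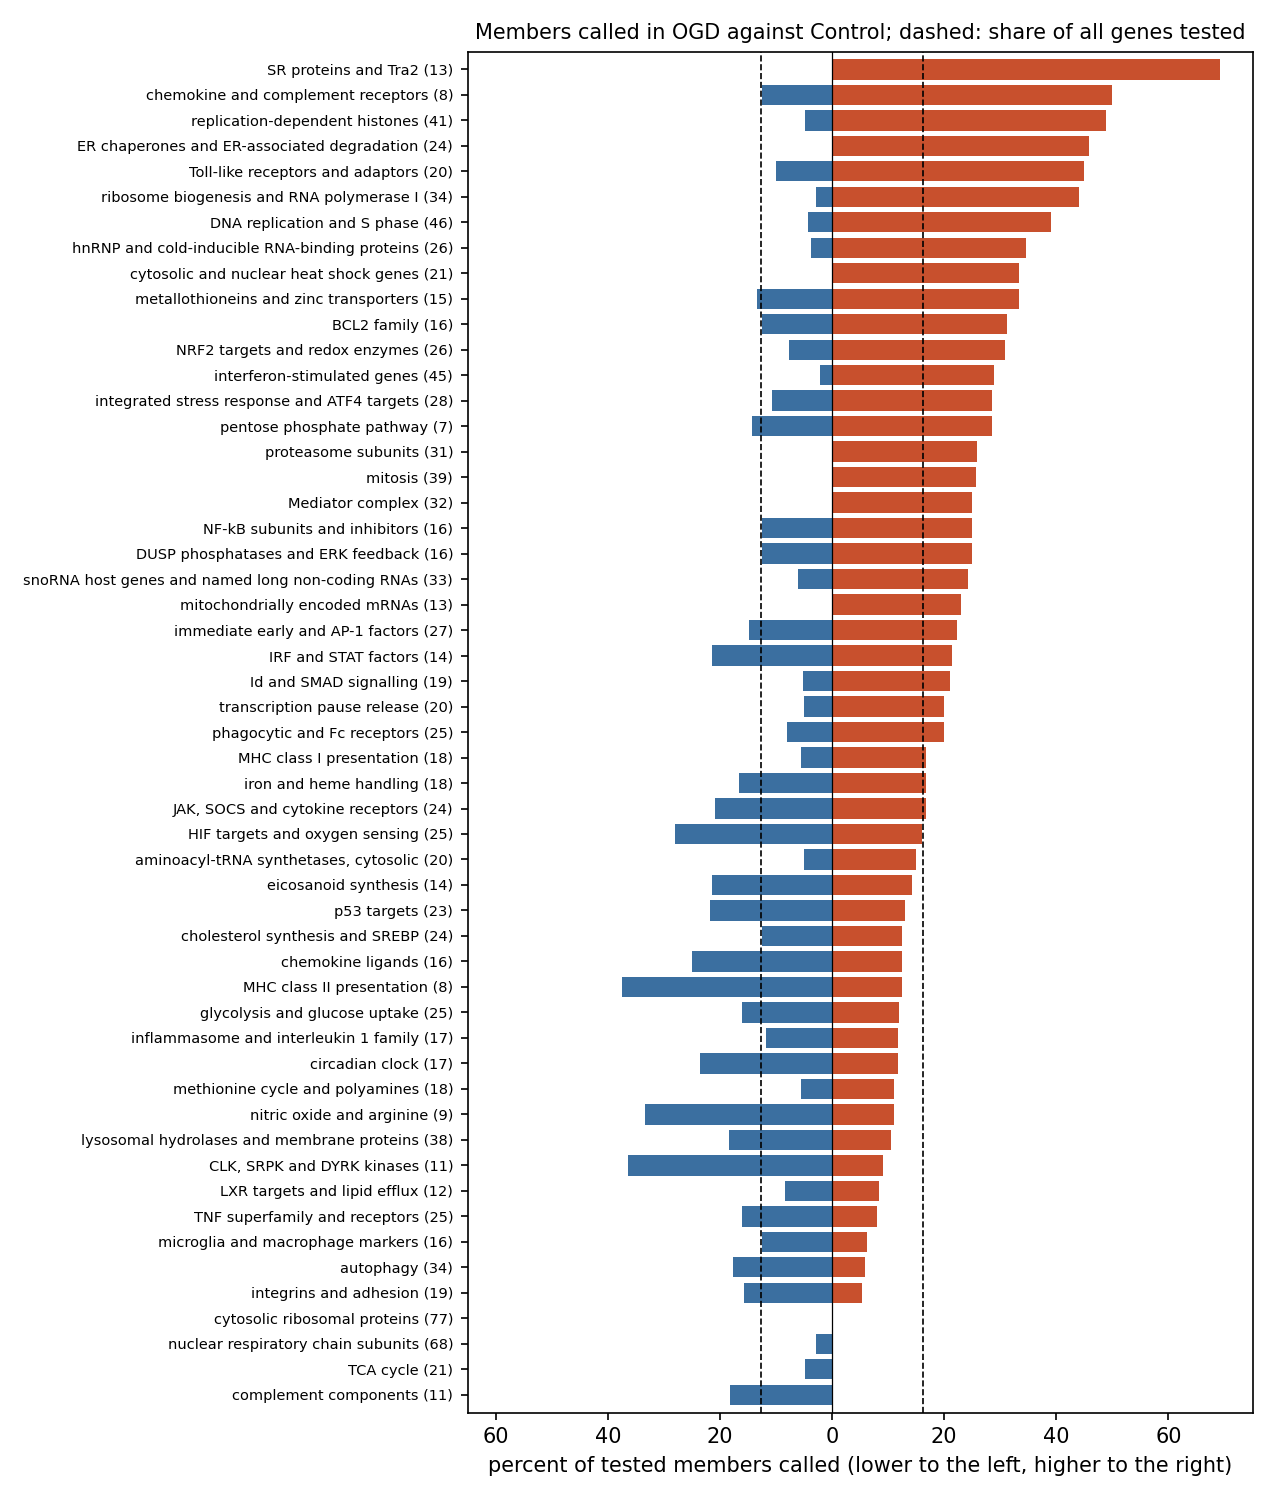
Percent of the tested members of each gene list called higher (red, to the right) and lower (blue, to the left) in OGD, with the number tested in brackets after each name. The dashed lines mark the shares over all genes tested, 16.2% higher and 12.6% lower. SR proteins stand at the top with 9 of 13 called higher, and ribosomal proteins have 0 of 77 called.

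Several immune receptor and adaptor genes were higher in OGD, and genes of secreted ligands were called in both directions. Of 20 Toll-like receptor and adaptor genes 9 were called higher and 2 lower, with a median of 0.78. Leaving out Control 1 or OGD 3 gave 5 and 2, and leaving out OGD 2 together with OGD 3 gave 4 and 1. Myd88, the adaptor shared by most of these receptors, stood at 64.1, 53.5, 70.8 and 41.6 CPM in Control 1 to 4 and 172, 198, 176 and 146 CPM in OGD 1 to 4 (log2 fold change 1.59 ± 0.19, adjusted p = 0.000142). Tlr2, a receptor of bacterial lipoproteins, stood at 20.5, 20.4, 27.0 and 18.4 CPM in Control 1 to 4 and 40.8, 64.5, 52.6 and 47.9 CPM in OGD 1 to 4 (log2 fold change 1.25 ± 0.16, adjusted p = 0.000187). The OGD libraries of both genes lay above all Control libraries. Irak2, a kinase downstream of Myd88, went the other way with -0.68 ± 0.12.

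Receptors for chemokines and complement fragments gave 4 rises and 1 fall among 8, with or without OGD 2 and OGD 3, and a median of 1.15. Cxcr3 (ENSMUSG00000050232.7, chromosome X), the receptor of interferon-induced chemokines, stood at 3.76, 2.57, 3.85 and 2.15 CPM in Control 1 to 4 and 15.6, 21.4, 19.4 and 17.3 CPM in OGD 1 to 4 (log2 fold change 2.58 ± 0.25, adjusted p = 4.57e-05). C5ar1, the receptor of the complement fragment C5a, stood at 34, 28.8, 33.5 and 24.6 CPM in Control 1 to 4 and 87.9, 74.1, 74.1 and 77.8 CPM in OGD 1 to 4 (log2 fold change 1.38 ± 0.14, adjusted p = 4.80e-05). C3ar1, the receptor of C3a, stood at 13, 14.4, 17.9 and 13.3 CPM in Control 1 to 4 and 33.1, 44.5, 42.5 and 54.1 CPM in OGD 1 to 4 (log2 fold change 1.57 ± 0.22, adjusted p = 0.000277), and C5ar2 ranged from 1.12 to 1.86 CPM in Control and from 2.42 to 4.28 CPM in OGD. No Control library reached the OGD range in any of the 4. The fractalkine receptor gene Cx3cr1 was the fall, ranging from 4.06 to 4.84 CPM in Control and from 1.53 to 2.5 CPM in OGD (-1.07 ± 0.24).

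Chemokine ligands gave 2 rises and 4 falls among 16, and 1 and 2 without OGD 2 and OGD 3. Ccl3 (ENSMUSG00000000982.6, chromosome 11), a chemokine secreted by macrophages, stood at 3179.6, 4906, 3359 and 4991 CPM in Control 1 to 4 and 1085, 1050.2, 1034 and 1122 CPM in OGD 1 to 4 (log2 fold change -1.94 ± 0.20, adjusted p = 5.98e-05), and its relative Ccl4 at 2017, 2131, 2009.9 and 1916 CPM in Control 1 to 4 and 1252, 1089, 1075 and 836 CPM in OGD 1 to 4 (log2 fold change -0.93 ± 0.22, adjusted p = 0.00606). The OGD libraries of Ccl3 lay closer together than the Control libraries, and neither gene's groups overlapped. Ccl25, a ligand of CCR9, rose at a low level, ranging from 3.11 to 5.23 CPM in Control and from 7.27 to 13.9 CPM in OGD (1.33 ± 0.24). Cxcl2, a neutrophil attractant, had -0.97 ± 0.21 (adjusted p = 0.00400, 3.32e-05 to 0.0523 over the alternatives, highest without OGD 2 and OGD 3).

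The TNF family of ligands and receptors gave 2 rises and 4 falls among 25, a share below that of all genes, and 1 and 3 without OGD 2 and OGD 3. The lymphotoxin genes fell together. Lta (ENSMUSG00000024402.6, chromosome 17) stood at 45.4, 52.9, 45.6 and 53.6 CPM in Control 1 to 4 and 11.1, 6.09, 7.96 and 7.04 CPM in OGD 1 to 4 (log2 fold change -2.61 ± 0.26, adjusted p = 4.80e-05), and Ltb, its membrane partner, at 28.5, 25.8, 22 and 27.2 CPM in Control 1 to 4 and 11.1, 7.19, 9.21 and 7.30 CPM in OGD 1 to 4 (log2 fold change -1.57 ± 0.25, adjusted p = 0.000556). Both lie on chromosome 17 together with Tnf, which was not called. Tnf stood at 605, 597, 647 and 519 CPM in Control 1 to 4 and 498, 481, 442 and 385 CPM in OGD 1 to 4 (-0.39 ± 0.17, adjusted p = 0.106, 0.00343 to 0.279 over the alternatives), with every OGD library below every Control library. It was called lower in 9 of 23 alternatives, DESeq2 and all 3 fits on FPKM among them. Tnfsf13b, the B cell factor BAFF, rose, ranging from 3.97 to 5.59 CPM in Control and from 8.36 to 16.7 CPM in OGD (1.33 ± 0.23).

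**Figure D5:**
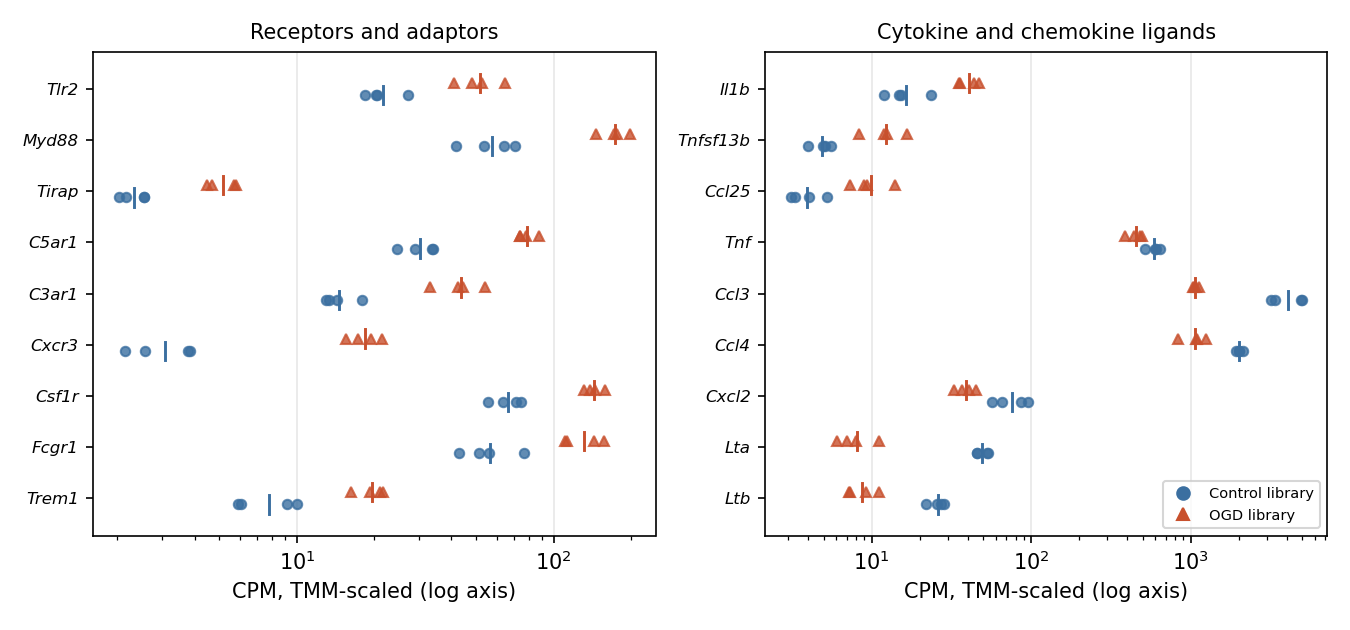
TMM-scaled CPM on a log axis of receptor and adaptor genes (left) and of cytokine and chemokine ligand genes (right) in each Control library (blue circles) and OGD library (red triangles), with vertical bars at the group means. The 9 receptor and adaptor genes shown are higher in OGD, while Ccl3, Ccl4, Cxcl2, Lta and Ltb are lower and Il1b, Tnfsf13b and Ccl25 are higher. The left panel holds only genes that rose. Receptor and adaptor genes called lower, among them Cx3cr1, Irak2 and Ticam1, are not shown.

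Among inflammasome and interleukin 1 genes 2 were called higher and 2 lower of 17 (23.5% against 28.8% of all genes). Il1b stood at 12, 14.8, 23.5 and 15.2 CPM in Control 1 to 4 and 36.0, 46.8, 44.0 and 35.4 CPM in OGD 1 to 4, and P2rx7, the ATP-gated channel that triggers release of its product, at 4.70, 6.51, 5.79 and 5.04 CPM in Control 1 to 4 and 9.97, 12.3, 11.9 and 13.1 CPM in OGD 1 to 4 (log2 fold change 1.10 ± 0.17, adjusted p = 0.000434). The groups did not overlap for either. The sensor gene Nlrp3 had 0.41 ± 0.15 and was not called (adjusted p = 0.0546, 0.00860 to 0.579 over the alternatives). Pycard, the adaptor ASC, was scarcely detected, with 0.436 to 0.862 CPM in Control and 0 to 0.0781 CPM in OGD.

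NF-kB subunit and inhibitor genes gave 4 rises and 2 falls among 16, 1 rise and 2 falls without Control 2, and 1 rise without OGD 2 and OGD 3. The rise that stayed in both was Nfkbid, a nuclear inhibitor, ranging from 17 to 29.6 CPM in Control and from 68.1 to 82.5 CPM in OGD (log2 fold change 1.58 ± 0.18, adjusted p = 0.000117).

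Interferon-stimulated genes gave 13 rises and 1 fall among 45 (31.1% against 28.8% of all genes), with a median of 0.64. Without OGD 2 and OGD 3 there were 8 rises and 1 fall. The interferon-stimulated response element, searched as GAAANNGAA on either strand, was in 8.56% of all promoters, in 8.64% of those of tested genes, in 22 of the 36 members with an entry and in 3 of the 10 called rises with one. The window of Isg15 (chr4:156200819-156201068, minus strand, GRCm38.p6) is printed because it holds 3 overlapping matches, in capitals.
Isg15: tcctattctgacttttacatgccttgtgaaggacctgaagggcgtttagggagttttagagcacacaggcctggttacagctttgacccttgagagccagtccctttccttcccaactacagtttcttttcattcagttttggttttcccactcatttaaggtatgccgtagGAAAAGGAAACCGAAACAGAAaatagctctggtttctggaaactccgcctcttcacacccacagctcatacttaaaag
Isg15, a ubiquitin-like modifier chosen after its values were seen, stood at 35.3, 38.6, 59.4 and 35.8 CPM in Control 1 to 4 and 89.1, 113, 121 and 91.6 CPM in OGD 1 to 4 (log2 fold change 1.29 ± 0.22, adjusted p = 0.000931). Oas2, an RNA sensor, stood at 7.89, 7.17, 9.67 and 8.59 CPM in Control 1 to 4 and 16.8, 22, 21.7 and 31.0 CPM in OGD 1 to 4 (log2 fold change 1.46 ± 0.18, adjusted p = 0.000174), with OGD 4 the highest. Cmpk2, a mitochondrial kinase, ranged from 1.88 to 3.85 CPM in Control and from 6.0 to 9.91 CPM in OGD (1.59 ± 0.25), and Usp18, which strips Isg15 from proteins, ranging from 63.8 to 99.7 CPM in Control and from 142 to 199 CPM in OGD (1.21 ± 0.19). Ifi27l2a was the fall, ranging from 159 to 169.6 CPM in Control and from 56.8 to 86.4 CPM in OGD (log2 fold change -1.10 ± 0.25, adjusted p = 0.00534).

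Regulators of these pathways were called in both directions. Irf8, a factor that specifies microglia and other myeloid cells, stood at 149.9, 151, 128 and 159.9 CPM in Control 1 to 4 and 92.4, 64.5, 68.9 and 66.4 CPM in OGD 1 to 4 (log2 fold change -1.01 ± 0.17, adjusted p = 0.000656). Jak3 and Tyk2, kinases of cytokine receptors, had -1.16 ± 0.20 and -0.99 ± 0.18, while Socs1, an inhibitor of JAK kinases, had 1.36 ± 0.25. Irf1 had 0.75 ± 0.14 (adjusted p = 0.00136, 4.00e-07 to 0.0776 over the alternatives, highest with limma on log2(FPKM + 1)). Of 14 IRF and STAT genes 3 were called each way, or 1 and 2 without Control 2, and of 24 JAK, SOCS and cytokine receptor genes 4 were called higher and 5 lower.

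Calls among genes of lipid and nitric oxide mediators went both ways, with more falls than rises. Ltc4s (ENSMUSG00000020377.16, chromosome 11), the synthase of leukotriene C4, stood at 16, 14.8, 14.5 and 14 CPM in Control 1 to 4 and 4.23, 2.55, 3.36 and 2.21 CPM in OGD 1 to 4 (log2 fold change -2.26 ± 0.26, adjusted p = 9.55e-05), without overlap of the groups. Of 14 eicosanoid genes 2 were called higher and 3 lower (35.7% against 28.8% of all genes). The numbers were 1 and 2 without Control 2 and likewise without Control 4. Of 9 nitric oxide and arginine genes 1 was called higher and 3 lower (44.4%), or 1 and 1 without OGD 2 and OGD 3. Ass1, which recycles citrulline to arginine, ranged from 15.6 to 21.7 CPM in Control and from 8.94 to 11.9 CPM in OGD (-0.93 ± 0.18). Nos2 had -1.28 ± 0.29, with OGD 2 and OGD 3 at 44.0 and 59.1 CPM below OGD 1 and OGD 4 at 118 and 95.9 CPM, and adjusted p = 0.00471, 1.69e-06 to 0.0583 over the alternatives, highest without OGD 2 and OGD 3.

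Phagocytic receptor genes gave 5 rises and 2 falls among 25 (28.0% against 28.8% of all genes), with a median of -0.01. Fcgr1, the high-affinity IgG receptor, stood at 51.2, 56.2, 76.8 and 42.6 CPM in Control 1 to 4 and 111, 157, 143 and 113 CPM in OGD 1 to 4 (log2 fold change 1.21 ± 0.18, adjusted p = 0.000369). Trem1, an amplifier of inflammation, ranged from 5.93 to 10.0 CPM in Control and from 16.3 to 21.7 CPM in OGD (1.33 ± 0.19), and the inhibitory receptor gene Cd300a from 34.9 to 47.8 CPM in Control and from 75.2 to 122 CPM in OGD (1.21 ± 0.21). Trem2 ranged from 245 to 298 CPM in Control and from 229.5 to 377 CPM in OGD without being called (adjusted p = 0.532).

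Antigen presentation genes of class II gave 1 rise (Ifi30) and 3 falls (H2-Aa, H2-DMb1 and H2-Eb1) among 8, with a median of -0.39. Leaving out Control 1 gave 0 and 2, and leaving out OGD 2 together with OGD 3 gave 0 and 1. H2-Aa and H2-Eb1 rested on few reads, with at most 1.96 and 1.07 CPM. Class I genes gave 3 rises and 1 fall among 18 (22.2% against 28.8% of all genes). The numbers were 1 and 1 without OGD 3, and 1 and 2 without OGD 2 and OGD 3. H2-K1 and Cd74 were not called, with -0.01 ± 0.17 and -0.21 ± 0.17. H2-T22, a non-classical class I gene, ranged from 158 to 161 CPM in Control and from 73.8 to 106 CPM in OGD (-0.78 ± 0.20, adjusted p = 0.00919, 5.08e-06 to 0.0544 over the alternatives, highest without OGD 1 and OGD 4). Class I genes share sequence, and how reads were divided among them is not given. Tapbpl, a peptide editor, rose, ranging from 2.86 to 4.27 CPM in Control and from 5.91 to 8.39 CPM in OGD (0.95 ± 0.21).

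Of 16 tested microglial and macrophage markers 1 was called higher and 2 lower (18.8% against 28.8% of all genes). Csf1r (ENSMUSG00000024621.17, chromosome 18), the receptor of the growth factors on which microglia depend, stood at 74.3, 63.7, 71.6 and 55.6 CPM in Control 1 to 4 and 131, 159, 139 and 145 CPM in OGD 1 to 4 (log2 fold change 1.12 ± 0.14, adjusted p = 0.000170). No overlap was seen between the groups. The falls were Cx3cr1 and Fcer1g, a signalling chain of Fc receptors, with -0.48 ± 0.14 (adjusted p = 0.0171, 0.000202 to 0.157 over the alternatives, highest without OGD 1 and OGD 4).

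Genes of signalling feedback and transcription factors were called in both directions. Dusp4 (ENSMUSG00000031530.7, chromosome 8), a nuclear phosphatase of ERK, stood at 211, 241, 169 and 279 CPM in Control 1 to 4 and 66.6, 58.5, 52.2 and 60.9 CPM in OGD 1 to 4 (log2 fold change -1.92 ± 0.17, adjusted p = 2.64e-05), while Dusp6, its cytosolic counterpart, stood at 47.1, 43.1, 51.3 and 42.9 CPM in Control 1 to 4 and 78.9, 79.0, 74.3 and 78.7 CPM in OGD 1 to 4 (log2 fold change 0.75 ± 0.12, adjusted p = 0.000636). Neither gene's groups overlapped. Of 16 genes of this kind 4 were called higher and 2 lower. Fosl1, an AP-1 subunit, rose, ranging from 12.1 to 14 CPM in Control and from 34.3 to 41.4 CPM in OGD (log2 fold change 1.56 ± 0.14, adjusted p = 2.64e-05), and Zfp36l2, which promotes mRNA decay, ranging from 14.4 to 18.3 CPM in Control and from 35.4 to 57.6 CPM in OGD (1.36 ± 0.19). Its relative Zfp36 and the transcription factor gene Myc fell, with -0.68 ± 0.14 and -0.99 ± 0.22.

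Id1 (ENSMUSG00000042745.10, chromosome 2), an inhibitor of differentiation factors induced by BMP signals, stood at 5.73, 3.03, 4.32 and 1.53 CPM in Control 1 to 4 and 18.9, 25.5, 20.1 and 16.4 CPM in OGD 1 to 4 (log2 fold change 2.47 ± 0.36, adjusted p = 0.000312). All 4 OGD libraries lay above the Control libraries, of which Control 4 was the lowest. Tgfbr2, a receptor of TGF-beta, on which microglial identity depends, ranged from 24 to 30.2 CPM in Control and from 12 to 17.5 CPM in OGD (-0.97 ± 0.16). In 19 Id and SMAD genes 4 rises and 1 fall were called (26.3% against 28.8% of all genes), and 2 and 1 without Control 1, Control 2 or Control 3.

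Clock genes gave 2 rises and 4 falls among 17 (35.3% against 28.8% of all genes). Without Control 2, Control 4, OGD 1, OGD 2 or OGD 3 the numbers were 1 and 2. Ciart, a repressor of the clock, rose, ranging from 4.61 to 6.59 CPM in Control and from 12.6 to 15.3 CPM in OGD (log2 fold change 1.23 ± 0.19, adjusted p = 0.000395). Per1 and Nfil3 fell, with -0.90 ± 0.17 and -0.71 ± 0.14.

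Genes of cell death were called in both directions. Bid (ENSMUSG00000004446.13, chromosome 6), which carries the death receptor signal to mitochondria, stood at 33.8, 32.5, 34.4 and 27.4 CPM in Control 1 to 4 and 74.7, 101, 93.4 and 80.0 CPM in OGD 1 to 4 (log2 fold change 1.45 ± 0.14, adjusted p = 3.70e-05), and Bcl2l11, the activator BIM, at 38.5, 33.5, 31.4 and 36.8 CPM in Control 1 to 4 and 57.8, 67.2, 63.0 and 71.4 CPM in OGD 1 to 4 (log2 fold change 0.89 ± 0.12, adjusted p = 0.000266). Bbc3, the activator PUMA and a p53 target, fell, ranging from 20.6 to 33.4 CPM in Control and from 11.2 to 15.3 CPM in OGD (log2 fold change -1.10 ± 0.21, adjusted p = 0.00160). The groups did not overlap for any of the 3. Bax and Bcl2 were not called (adjusted p = 0.919 and 0.239). The BCL2 family had 5 rises and 2 falls among 16, and 2 of each without Control 2, OGD 2 or OGD 3.

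Targets of p53 gave 3 rises and 5 falls among 23 (34.8% against 28.8% of all genes). Aen, a nuclease of apoptosis, rose, ranging from 6.63 to 8.80 CPM in Control and from 17.2 to 22.3 CPM in OGD (log2 fold change 1.33 ± 0.18, adjusted p = 0.000234). Plk2 and Plk3, stress-responsive kinases, fell, with -1.52 ± 0.31 and -0.94 ± 0.18. Trp53 itself had 0.66 ± 0.17 (adjusted p = 0.0109, 3.87e-05 to 0.0544 over the alternatives, highest without OGD 2 and OGD 3).

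DNA replication and S phase genes gave 18 rises and 2 falls among 46, with a median of 0.36, and 12 rises and 0 falls without OGD 2 and OGD 3. Fen1, the flap endonuclease of Okazaki fragments, stood at 76.3, 74.2, 94.1 and 59.1 CPM in Control 1 to 4 and 189, 221, 209.8 and 162 CPM in OGD 1 to 4 (log2 fold change 1.36 ± 0.18, adjusted p = 0.000190). Rrm2, a subunit of ribonucleotide reductase, ranged from 41.9 to 50 CPM in Control and from 76.4 to 105 CPM in OGD, and Mcm10, a replication initiation factor, ranging from 21.5 to 33.2 CPM in Control and from 44.2 to 64.3 CPM in OGD. These 3 genes were higher in every OGD library than in any Control library. The falls were the polymerase delta subunits Pold1 and Pold2, with -0.68 ± 0.17 (adjusted p = 0.00747, 1.27e-05 to 0.0581 over the alternatives, highest without OGD 2 and OGD 3) and -0.56 ± 0.20 (adjusted p = 0.0485). The adjusted p of Pold2 was 0.0514 to 0.130 without any 1 library other than Control 4.

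Genes of mitosis gave 10 rises and 0 falls among 39, 6 rises without OGD 2 and 4 without OGD 2 and OGD 3. The share called was 25.6%, against 28.8% of all genes called in either direction and 16.2% called higher. Aurka, a spindle kinase, stood at 107, 108, 123 and 101 CPM in Control 1 to 4 and 194, 231, 202 and 182 CPM in OGD 1 to 4 (log2 fold change 0.88 ± 0.13, adjusted p = 0.000389), and Cdc20, an activator of the anaphase-promoting complex, ranged from 140.3 to 186 CPM in Control and from 247 to 294 CPM in OGD (0.68 ± 0.17). Mki67, a proliferation marker, stood at 4.34, 6.38, 5.39 and 6.76 CPM in Control 1 to 4 and 4.99, 2.10, 3.28 and 12.4 CPM in OGD 1 to 4 without being called (adjusted p = 0.991). OGD 4 was its highest and OGD 2 its lowest library.

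Most histone genes listed are replication-dependent, and their mRNAs end in a stem loop in place of a poly(A) tail. Of 41 tested 20 were called higher and 2 lower, with a median of 1.17. The falls were H1f2 and H1f0, and H1f0 is a replication-independent linker histone whose mRNA has a poly(A) tail. Without OGD 2 and OGD 3 the numbers were 3 and 1 and the median -0.10. Leaving out OGD 3 gave 9 and 2, OGD 2 gave 11 and 2, and Control 4 gave 11 and 1. H4c4 stood at 1.27, 1.62, 0.436 and 0.796 CPM in Control 1 to 4 and 0.915, 9.34, 16.2 and 0.714 CPM in OGD 1 to 4, and H1f4 at 0.614, 1.41, 0.714 and 0.995 CPM in Control 1 to 4 and 0.410, 11.9, 17.9 and 0.227 CPM in OGD 1 to 4. OGD 2 and OGD 3 alone were high in both, which were chosen after their values were seen. Neither was called without Control 3, Control 4, OGD 2 or OGD 3 (adjusted p = 0.0568 to 0.155), and H1f4 also not without Control 1 (0.0956) or Control 2 (0.0660). H3c8 differed from this pattern, ranging from 2.19 to 3.21 CPM in Control and from 5.03 to 9.52 CPM in OGD, with a log2 fold change of 1.05 without OGD 2 and OGD 3 (adjusted p = 0.0260). Histone reads summed to 729 to 1223 CPM of all reads in Control and to 781 to 847 in OGD, so that the totals overlapped. Near-identical histone copies can share reads, and how these were divided is not given.

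Genes of ribosome assembly were often called higher, whereas ribosomal protein genes were not. Of 34 genes of ribosome biogenesis and RNA polymerase I 15 were called higher and 1 lower, with a median of 0.61. Leaving out Control 2 gave 9 and 0, Control 4 gave 9 and 1, OGD 2 gave 10 and 0, and OGD 2 together with OGD 3 gave 7 and 0. Rrs1, an assembly factor of the large subunit, stood at 49.1, 43.2, 48.3 and 43.1 CPM in Control 1 to 4 and 102, 121, 112 and 107 CPM in OGD 1 to 4 (log2 fold change 1.27 ± 0.13, adjusted p = 5.98e-05). Polr1b, the second largest subunit of RNA polymerase I, stood at 61.4, 51.0, 58.6 and 41.3 CPM in Control 1 to 4 and 102, 105, 101 and 116 CPM in OGD 1 to 4 (log2 fold change 1.00 ± 0.15, adjusted p = 0.000355), and no overlap between groups was seen for either.

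Cytosolic ribosomal protein genes gave 0 calls in either direction among 77 by edgeR (6 lower and 0 higher at an unadjusted p under 0.05). DESeq2 called 6 lower, and edgeR on the 8 Control and OGD libraries alone called 10 lower. In the edgeR fit over 12 libraries the median was -0.31, and 76 of 77 lay below 0. Limma on log2(FPKM + 1) called 55 lower and 0 higher, on a scale where the median of the list was -0.48. With the size factors of DESeq2 the median was -0.35.

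Proteasome subunits gave 8 rises and 0 falls among 31. That was 25.8%, against 28.8% of all genes called in either direction and 16.2% called higher. Leaving out Control 2 gave 5 rises, OGD 2 gave 4, OGD 4 gave 13, and OGD 2 together with OGD 3 gave 2. Psmd7, a subunit of the lid, stood at 139.8, 156, 186 and 138 CPM in Control 1 to 4 and 249, 326, 259.6 and 235 CPM in OGD 1 to 4 (log2 fold change 0.79 ± 0.15, adjusted p = 0.00140), and Psmd6 ranged from 25.0 to 34.7 CPM in Control and from 43.9 to 64.0 CPM in OGD. Both were higher in all OGD libraries than in any Control library.

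Lysosomal and autophagy genes were called in both directions. Of 38 lysosomal genes 4 were higher and 7 lower (28.9% against 28.8% of all genes). The numbers were 3 and 3 without Control 1, and 2 and 5 without OGD 2. Naglu (ENSMUSG00000001751.10, chromosome 11), which degrades heparan sulfate, stood at 120.5, 103, 87.4 and 111 CPM in Control 1 to 4 and 34.7, 26.3, 26.7 and 25.0 CPM in OGD 1 to 4 (log2 fold change -1.90 ± 0.21, adjusted p = 8.45e-05). Ctsk, a collagen-degrading protease, stood at 137, 167, 194 and 174 CPM in Control 1 to 4 and 262, 474, 398 and 299 CPM in OGD 1 to 4 (log2 fold change 1.09 ± 0.19, adjusted p = 0.000953). The groups did not overlap for either, and OGD 2 was the highest library for Ctsk. Of 34 autophagy genes 2 were called higher and 6 lower (23.5%, a share below that of all genes). Wipi1, which marks forming autophagosomes, fell, ranging from 3.89 to 6.67 CPM in Control and from 1.01 to 1.99 CPM in OGD (-1.80 ± 0.32), whereas its relative Wipi2 rose, ranging from 66.7 to 84.8 CPM in Control and from 133 to 155 CPM in OGD (0.95 ± 0.14).

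A pair of sterol sensor genes was called in opposite directions. Scap, which carries SREBP to the Golgi, rose, ranging from 34.3 to 44.4 CPM in Control and from 61.9 to 65.4 CPM in OGD (log2 fold change 0.76 ± 0.14, adjusted p = 0.00138). Insig2, which retains Scap in the ER, fell, ranging from 14.5 to 21.1 CPM in Control and from 7.81 to 9.12 CPM in OGD (log2 fold change -1.01 ± 0.16, adjusted p = 0.000456). Among 24 genes of cholesterol synthesis and SREBP 3 were called higher and 3 lower (25.0% against 28.8% of all genes). Nr1h3, the lipid sensor LXR alpha, rose, ranging from 7.03 to 11.5 CPM in Control and from 17.4 to 25.5 CPM in OGD (1.27 ± 0.23).

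Genes of metal transport were called in both directions. Iron and heme handling gave 3 rises and 3 falls among 18 genes (33.3% against 28.8% of all genes), and 1 and 2 without Control 2 or OGD 4. Slc11a1 (ENSMUSG00000026177.12, chromosome 1), which pumps iron and manganese out of phagosomes, stood at 257, 211, 249 and 187 CPM in Control 1 to 4 and 481, 573, 533 and 471 CPM in OGD 1 to 4 (log2 fold change 1.19 ± 0.18, adjusted p = 0.000380). Slc39a14, an importer of zinc and iron, stood at 26.3, 21.8, 22.3 and 21.4 CPM in Control 1 to 4 and 49.5, 53.5, 50.6 and 64.3 CPM in OGD 1 to 4 (log2 fold change 1.25 ± 0.14, adjusted p = 8.34e-05). Every OGD library lay above every Control library for both. Lcn2, a siderophore-binding protein, fell, ranging from 364 to 410.3 CPM in Control and from 88.3 to 137 CPM in OGD. Of 15 metallothionein and zinc transporter genes 5 were called higher and 2 lower. The heme exporter gene Flvcr1 fell, with -0.96 ± 0.23 (adjusted p = 0.00723, 6.43e-05 to 0.0810 over the alternatives, highest without OGD 2 and OGD 3), and so did the zinc importer gene Slc39a3, with -0.76 ± 0.20 (adjusted p = 0.0118, 0.000104 to 0.0676 over the alternatives, highest without OGD 1 and OGD 4). Both lost their call without OGD 2 and OGD 3 and without OGD 1 and OGD 4, and Slc39a3 also with the Rn18s share as a covariate.

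Long non-coding RNAs were called at a share near that of all genes, with 184 higher and 114 lower among 1039 tested (28.7%). The host gene of small nucleolar RNAs Snhg15 stood at 28.1, 28.2, 32.5 and 22.6 CPM in Control 1 to 4 and 68.1, 100.4, 87.9 and 57.2 CPM in OGD 1 to 4 (log2 fold change 1.49 ± 0.22, adjusted p = 0.000318), and Snhg3 ranged from 21.2 to 24.9 CPM in Control and from 41.6 to 68.3 CPM in OGD (1.27 ± 0.17). OGD 2 and OGD 3 were the highest libraries for both, but the groups did not overlap and the calls held without them (adjusted p = 0.00729 and 0.00395). Mir142hg, the host of a microRNA of blood cells, rose at a low level, ranging from 0.83 to 1.43 CPM in Control and from 3.44 to 7.96 CPM in OGD (log2 fold change 2.11 ± 0.30, adjusted p = 0.000300).

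Several of the most changed lncRNAs are antisense transcripts. Zfp335os rose, ranging from 3.11 to 3.97 CPM in Control and from 11.4 to 18.1 CPM in OGD (log2 fold change 2.06 ± 0.22, adjusted p = 6.86e-05), and Arhgap27os1 and Sp3os fell, ranging from 2.82 to 5.22 CPM in Control and from 0.349 to 1.07 CPM in OGD and from 11.2 to 13.4 CPM in Control and from 4.03 to 5.14 CPM in OGD. The library kit keeps strand, but the strand setting of the counting was not given in the sources used here, so reads of these genes and of their partners on the other strand may be mixed. Malat1 and Neat1, abundant nuclear RNAs, were not called (adjusted p = 0.543 for Malat1). Neat1 stood at 45.2, 79.3, 45.8 and 118 CPM in Control 1 to 4 and 31.8, 10.3, 20.1 and 27.9 CPM in OGD 1 to 4, and the 4 OGD libraries lay below the 4 Control libraries (adjusted p = 0.0531, 2.36e-05 to 0.350 over the alternatives).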

How the data were processed

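RNA of 12 BV2 libraries was sequenced as paired reads after preparation with a stranded mRNA kit, per the labels' protocols. The authors deposited raw read counts per gene and FPKM values. HISAT2, bcl2fastq, DESeq2 and GRCm39 are named, without versions or roles, in the submitters' processing notes, and the sources used here name no counter, annotation or strand setting. The quasi-likelihood test of edgeR 4.0.16 (R 4.3.3) was run on the counts, with TMM scaling, 1 fit over the 12 libraries and a filter of 10 counts (filterByExpr, with a total of at least 15). Adjusted p-values are Benjamini-Hochberg values over all 13249 genes, called under 0.05. Deposited FPKM values, which are not counts, were tested as log2(FPKM + 1) with limma 3.58.1 in genes of at least 0.5 FPKM in at least 4 libraries, and DESeq2 1.42.0 served as another count test. The count test was tested on simulated data with 200 changed genes.

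The comparison and the gene lists were chosen with earlier results of these data known. Genes were named by a rule: the 12 largest rises and 12 largest falls among protein-coding genes called with and without OGD 2 and OGD 3, with no overlap and a mean of at least 20 CPM; the 4 called members of each list with the smallest p and up to 2 against the majority; the 4 largest lncRNA rises and falls of at least 2 CPM; and a fixed set of key genes. Other named genes are said to have been chosen after their values were seen. Alternatives were DESeq2, its size factors, other filters, FPKM, thinning to the smallest library, the Rn18s share as a covariate, a replicate block, and each library left out in turn. Removal of a trend with gene length and the fit without OGD 1 and OGD 4 were chosen after seeing the data.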

Additional observations from a re-analysis of the deposited data

Results flagged for a closer look

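In 17 of 356 groups of 4 libraries checked for the named genes, 1 library stood apart, its gap to the nearest of the others, as a share of the group's range, exceeding Dixon's critical value. Chance marks about 1 in 20 groups, a share close to the one seen.

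Control 3 was the high library among Control for ER, interferon and replication genes, namely Calr (829 CPM), Creld2 (56.2 CPM), Dnajb11 (50.9 CPM), Isg15 (59.4 CPM), Usp18 (99.7 CPM) and Mcm10 (33.2 CPM). Control 1 was high for Pgls (606 CPM) and Slc39a14 (26.3 CPM).

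Among the OGD libraries, OGD 1 was high for Irf8 (92.4 CPM), Pcx (57.8 CPM) and Ypel3 (18.4 CPM) and low for Srsf5 (61.4 CPM). OGD 2 was high for Aen (22.3 CPM) and Nfkbid (82.5 CPM). OGD 3 was low for Dusp6 (74.3 CPM). OGD 4 was low for Dcxr (5.32 CPM) and high for Vegfa (17.8 CPM).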

How the results depend on the processing

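The 3813 calls (2148 higher, 1665 lower) stayed within 1.5 times of these numbers under 11 of 16 alternatives other than single libraries left out. Without OGD 2 and OGD 3 the fit gave 2010 calls (1131 and 879), with fewer samples. A log2 fold change of at least 1 left 1532 (719 and 813). Limma on FPKM called 914 higher with 1 added and 955 with 0.1 added. Leaving out single libraries gave 2798 to 3501 calls, with 1559 to 2076 higher and 1239 to 1551 lower. Without OGD 2 and OGD 3, the log2 fold change turned to -1.45 for 7SK, -0.45 for Ccnb1ip1, -1.53 for H1f4, -0.33 for H4c4, -1.21 for Rmrp and -1.39 for U1. With the Rn18s share as a covariate it was -0.33 for 7SK and -0.44 for H1f4. The cause was not tested. Of 176 named genes compared over the alternatives, 18 lost their call or turned without OGD 2 and OGD 3, 12 with limma on log2(FPKM + 1) and 8 without OGD 1 and OGD 4. With DESeq2 0 lost and 1 gained a call. Depth limits genes of a few reads, such as mt-Nd3 and Pycard.

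The fit on the 8 Control and OGD libraries alone gave 4882 calls, 2693 higher and 2189 lower. A replicate block on the numbers in the titles, fitted on those 8 libraries, gave 6419 calls, 3418 higher and 3001 lower. It also called Hspa5, Xbp1 and Nlrp3 higher (adjusted p = 0.000101, 0.00349 and 0.00860) and Tnf, Pdk1, Bnip3 and Neat1 lower (0.00343, 0.00479, 0.00948 and 2.36e-05). The deviations of same-numbered Control and OGD libraries from their group means correlated at 0.167, 0.162, 0.071 and 0.506. Thus 3 of 4 pairs exceeded 0.1, and Control 1, 2 and 4 correlated best with their own number but Control 3 with OGD 2 (0.235). Since not every pair did, the numbers were not taken to pair the libraries, which does not show that these are unpaired.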
